A study of Mus musculus with 8 samples.

Results

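TAF4 lacking its TAFH domain was compared with no TAF4 at all, by setting clones of Taf4 knockout fibroblasts that express the TAFH-deleted protein against the knockout cells themselves. This comparison took 4 of the 8 RNA sequencing libraries of the series: 2 TAFH-deleted clones and 2 libraries of the knockout line, chosen by their labels alone. All cells were mouse embryonic fibroblasts of strain C57BL/6, connective tissue cells kept in culture medium with serum. Knockout cells are Taf4 -/-. The rescue cells are Taf4 -/- too and carry a stably expressed human transgene, hTAF4 without the TAFH domain (clones 1 and 2) or full-length hTAF4 (clones 1 and 2), and the control cells are Taf4 loxp/-, with 1 floxed and 1 null allele, although another label calls them wild type. The labels give neither the promoter of the transgene nor its level, nor passage numbers. No label states that samples of a group were cultured separately, and p-values therefore cover only how these samples varied. Each TAFH-deleted library is 1 clone, and each clone is reported separately.

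TAF4 is a subunit of TFIID, the general transcription factor that binds core promoters and helps to recruit RNA polymerase II. Its TAFH domain, which is shared with the ETO family of corepressors, is a docking surface for transcription factors. Among the factors known to bind it are E proteins, basic helix-loop-helix activators that recognise the E-box and are held in check by Id proteins. The series title links TAF4 to E proteins through TFIID binding. Fibroblasts can also produce acute-phase proteins, chemokines and interferon-response proteins, groups that make up much of what follows.

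Expression was given as FPKM, fragments counted per kilobase of transcript and divided by the size of the library. The steps between low FPKM values implied totals, in units of 1e6 fragments, of 14.3 and 16.2 in TAFH-deleted clones 1 and 2 and 14.8 in each knockout library, so that 1 fragment of a 2-kilobase transcript was worth 0.0390, 0.0343 and 0.0376 FPKM. Between the knockout libraries the difference was under sampling noise (chi-square per gene 0.613 ± 0.0337 SE over 704 genes with 2 to 7 fragments) and they were counted as 1 sample, as was the control pair, so knockout values carry no replicate error. The same measure was 2.43 ± 0.103 between the TAFH-deleted clones. Over genes with 20 to 100 fragments, where sampling noise hides less, it was 15.7 ± 0.861 between these clones. There it was 0.525 ± 0.0272 between the knockout libraries and 2.68 ± 0.158 between the full-length clones. Highly expressed genes approached 1 read per possible start site: the most fully used gene of each library had 92.7% to 97.4% of its read starts in use, and 4330 of the 12025 genes tested had over 20% in use, averaged over the libraries. For a 2-kilobase transcript, 1 read per start would be 150 FPKM in each knockout library, 156 in clone 1 and 137 in clone 2. Near such levels a difference between libraries may be compressed, which was not tested. Of 14 fibroblast markers, 11 were at 1 FPKM or more in each of these 4 libraries. Thy1 was at 0 in all 4, and Lum and Dcn were under 1 FPKM, Dcn at 0.642 in each knockout library and at 0 and 0.0387 in the clones. Vim was at 140 FPKM in each knockout library and at 146 and 130 in the clones, Col1a1 at 131 in each knockout library and at 128 and 116 in the clones, and Twist1 at 36.2 in each knockout library and at 33.7 and 37.3 in the clones. Col1a1 had 93.0% and 92.9% of its read starts in use in knockout and 87.3% and 90.2% in the clones. Other markers were less steady: Pdgfrb was at 60.95 and 60.47 in knockout and 57.6 and 34.5 in the clones. Pdgfra was at 17.4 and 17.3 against 11.5 and 8.81, and Postn at 32.0 and 30.4 against 73.0 and 25.9. Of 13 tested fibroblast markers, 7 were lower in both clones and 1 higher, beside 25.7% and 34.6% of all tested genes. Endothelial markers were under 1 FPKM in every library (8 of 8 genes), as were 8 of 9 epithelial and 6 of 10 macrophage and blood markers. Taf4a, the mouse Taf4 gene, was listed at 12.5 and 12.4 FPKM in knockout, 14.7 and 19.2 in the TAFH-deleted clones and 11.3 in control, and as the deleted exons are not named in the labels, this level does not check the labels.

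At a limit of 2-fold, more genes lay below knockout than above it in each TAFH-deleted clone, whereas differences of any size were more often upward in the deposited FPKM. That upward majority was slight and depended on the scaling. After median-ratio scaling, the median over all tested genes was -0.005 in clone 1 and -0.016 in clone 2. Such scaling brings the medians of libraries together by design. After quantile normalization the medians stayed positive, at 0.025 in clone 1 and 0.027 in clone 2. As differences of log2(FPKM + 1), a scale that compresses low genes, 172 genes were at least 2-fold lower than knockout in both clones (1.43% of the 12025 tested) and 19 were at least 2-fold higher in both (0.158%). In clone 1 alone 264 genes were at least 2-fold lower (2.2%) and 50 higher (0.416%). Clone 2 was further from knockout, with 594 genes lower (4.94%) and 423 higher (3.52%). Both clone differences use the same knockout sample, so a gene high in that sample alone counts as lower in both clones. The 172 shared genes were 65.2% of the lower genes of clone 1 and 29.0% of those of clone 2. Their median difference was -1.60 in clone 1 and -1.89 in clone 2, whereas the median over all tested genes was 0.03 in both, and 121 of the 172 were further down in clone 2. Just inside this limit lay Svep1, at -1.10 and -1.03 in clones 1 and 2, and A4galt, at -1.03 and -3.04. Just outside were Bmpr1b, at -0.99 and -1.05, and Cxx1c, at -0.99 and -1.16. In clone 1, 6618 genes were above knockout by any amount and 5395 below, and in clone 2 6468 and 5547. Such differences lay on the same side in both clones for 4166 genes above knockout (34.6%) and 3096 below it (25.7%).

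The test of the 2 clones against knockout called no gene. With limma on log2(FPKM + 1) over all 4 groups, 0 genes were called at a Benjamini-Hochberg adjusted p of 0.05 (0.0% of those tested), 789 had an unadjusted p under 0.05 (277 higher and 512 lower), and the smallest adjusted p was 0.173. Of the 172 genes lower in both clones, 160 were among the 789, and of the 19 higher in both, 17 were. The authors' deposited table, from another test of the same libraries, calls 135 of 14104 transcripts in this comparison, 39 higher and 96 lower, and 67 of the 172 genes and 8 of the 19 have such a transcript. Without TAFH-deleted clone 1 limma called 2136 genes higher and 1877 lower, and without clone 2 it called 119 and 339, but a lone clone is then assumed to vary like the full-length clones. The SD of the difference between the TAFH-deleted clones over all genes was 0.575, and clone 2 was at least 2-fold above clone 1 in 491 genes (4.08%) and at least 2-fold below it in 432 (3.59%). Since no gene passed, the differences from knockout below are values of these libraries, given clone by clone.

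**Figure D1:**
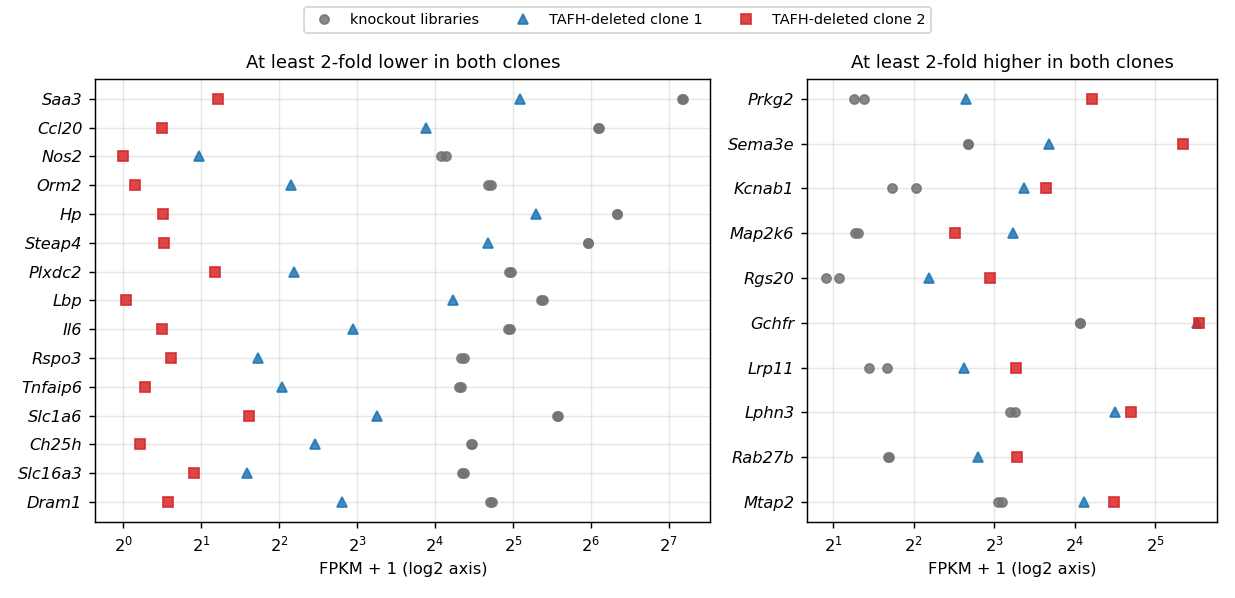
FPKM + 1 (log2 axis) of the 15 named genes that were at least 2-fold lower and the 10 that were at least 2-fold higher than knockout in both TAFH-deleted clones. Grey circles are the 2 knockout libraries, blue triangles clone 1 and red squares clone 2; the lower genes lie further from knockout in clone 2, Saa3 for example at 33.0 FPKM in clone 1 and 1.32 in clone 2.

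Acute-phase proteins and inflammatory effectors, secreted by many cells under inflammatory signals, were the list furthest below knockout. Of 24 tested members, 22 were lower in both clones (25.7% of all tested genes were) and 10 were at least 2-fold lower in both (1.43% of all tested genes). The median difference was -1.01 in clone 1 and -3.19 in clone 2. Genes with high use of read starts touch this list, and without its 10 members over 20% the medians were -1.09 and -2.83. The knockout sample itself was above control in 19 of 24 members (45.1% of all tested genes were), and both clones were below control in 17 of 24 (31.9% of all tested genes).

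Promoters of 5 genes that were low in both clones, taken from the acute-phase, cytokine and hypoxia groups, and of Sema3e, which was high in both, are shown with the motifs of factors known to act on such genes. The RefSeq table (GRCm38.p6) gave the 250 bases before the start of each. Saa3 lies at chr7:46715677-46715926 on the minus strand, and Ccl20, Orm2, Il6, Car9 and Sema3e at chr1:83116516-83116765, chr4:63362199-63362448, chr5:30012864-30013113, chr4:43506776-43507025 and chr5:14025026-14025275 on the plus strand. Capitals mark letters that match the E-box (CANNTG), kappa-B (GGGA and TTCC around 2 free bases), C/EBP (TTGNNCAA), AP-1 (TGANTCA) or hypoxia response core (ACGTG) on either strand. An E-box with the central letters CG also holds the hypoxia core, and none of those shown is of that kind. The motifs and these promoters were chosen after the expression values were seen.
Saa3: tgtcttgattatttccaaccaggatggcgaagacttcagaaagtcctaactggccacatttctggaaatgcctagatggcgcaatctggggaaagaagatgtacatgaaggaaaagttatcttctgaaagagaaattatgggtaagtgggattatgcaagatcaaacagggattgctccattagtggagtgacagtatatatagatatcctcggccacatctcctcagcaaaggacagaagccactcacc
Ccl20: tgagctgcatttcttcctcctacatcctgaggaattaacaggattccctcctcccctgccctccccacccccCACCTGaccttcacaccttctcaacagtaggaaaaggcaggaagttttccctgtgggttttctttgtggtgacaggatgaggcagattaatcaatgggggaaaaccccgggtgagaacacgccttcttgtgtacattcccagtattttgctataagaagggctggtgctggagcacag
Orm2: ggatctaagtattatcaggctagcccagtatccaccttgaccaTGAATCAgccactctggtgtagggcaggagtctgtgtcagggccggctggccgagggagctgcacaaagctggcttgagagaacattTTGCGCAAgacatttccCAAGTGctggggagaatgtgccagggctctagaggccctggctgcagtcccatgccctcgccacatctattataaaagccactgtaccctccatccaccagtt
Il6: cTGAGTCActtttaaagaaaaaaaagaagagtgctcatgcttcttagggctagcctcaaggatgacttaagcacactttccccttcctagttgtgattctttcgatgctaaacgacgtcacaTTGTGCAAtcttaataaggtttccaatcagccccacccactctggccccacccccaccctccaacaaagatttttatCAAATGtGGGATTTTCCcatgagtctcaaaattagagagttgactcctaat
Car9: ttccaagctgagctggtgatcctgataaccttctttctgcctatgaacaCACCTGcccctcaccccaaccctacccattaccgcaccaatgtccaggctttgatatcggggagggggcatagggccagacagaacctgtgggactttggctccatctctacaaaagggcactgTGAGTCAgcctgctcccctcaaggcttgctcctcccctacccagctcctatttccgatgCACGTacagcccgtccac
Sema3e: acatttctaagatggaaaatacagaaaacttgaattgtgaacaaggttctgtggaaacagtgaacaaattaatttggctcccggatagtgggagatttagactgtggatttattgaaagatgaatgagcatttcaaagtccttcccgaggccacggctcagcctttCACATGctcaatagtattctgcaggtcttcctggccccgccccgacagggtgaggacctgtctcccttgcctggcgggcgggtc

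The Saa3 promoter held no match to any of the 5 motifs, and each of the other promoters held 1 E-box match. Orm2 and Il6 also held a C/EBP and an AP-1 match each, Il6 the kappa-B match 44 to 35 bases before the start, and Car9 the hypoxia core 18 to 14 bases before it. Over the 9591 tested genes with a promoter in the table, 55.4% held an E-box match, 1.17% kappa-B, 4.63% C/EBP, 4.21% AP-1 and 22.2% the hypoxia core. Among the 116 of the 172 genes lower in both clones that have an entry, these shares were 59.5%, 0.862%, 6.03%, 12.9% and 14.7%. Among the 19 entries of the acute-phase list, 15 (78.9%) held an E-box match, 0 kappa-B, 7 (36.8%) C/EBP, 6 (31.6%) AP-1 and 1 (5.26%) the hypoxia core. Of the 14 entries among the 19 genes higher in both clones, 5 (35.7%) held an E-box match, 0 kappa-B, 0 C/EBP, 2 (14.3%) AP-1 and 1 (7.14%) the hypoxia core. A match is a run of letters, not a measured site. Only exact matches to these patterns were counted, so lack of a match does not show that a site is absent.

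Saa3, a serum amyloid A protein of the acute phase (chromosome 7, mm9 positions 53967368 to 53971046), was at 144 and 143 FPKM in the knockout libraries and at 33.0 and 1.32 in clones 1 and 2. Clone 1 thus stood well under both knockout libraries and clone 2 far under clone 1. Its log2 difference over the clones was -4.02 ± 1.66 (SE), with a limma adjusted p of 0.775. In knockout, 65.4% and 65.1% of its read starts were in use, against 14.5% and 0.659% in the clones, and the part of this in the difference was not tested.

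Hp, the haemoglobin-binding protein haptoglobin (chromosome 8), was at 79.6 and 79.4 FPKM in knockout, 38.2 in clone 1 and 0.432 in clone 2. Lbp, which carries bacterial lipopolysaccharide, was at 40.9 and 40.0 in knockout and 17.8 and 0.0265 in the clones. Steap4, an inflammation-induced metalloreductase, was at 61.6 and 61.5 in knockout and 24.6 and 0.441 in the clones. In all 3 genes clone 1 lay between knockout and a clone 2 value under 1 FPKM.

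Nos2, the inducible nitric oxide synthase (chromosome 11, mm9 positions 78734361 to 78773626), was low in both clones. It was at 16.7 and 15.9 FPKM in knockout and 0.963 in clone 1. In clone 2 it was listed at 0, where 3 fragments, an approximate upper confidence limit for a count of 0, would be 0.0488 FPKM. Orm2, an orosomucoid carrier protein of plasma, was at 24.6 and 25.2 FPKM in knockout and 3.44 and 0.108 in the clones. Its relative Orm1 was at 7.78 and 8.86 in knockout, 1.74 in clone 1 and 0 in clone 2. Cfb, factor B of the alternative complement pathway, stood at 12.7 and 13.4 in knockout and 1.77 and 0.581 in the clones, and Serpina3n, a secreted protease inhibitor, at 7.47 and 7.14 against 0.335 and 0. The Orm, Saa and Serpina3 genes have near-identical copies, and how reads were shared among copies is not given in the sources used here, so values of single members are uncertain.

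Complement C3 and several other members were within 2-fold of knockout in clone 1 and far lower in clone 2. C3 was at 110 and 111 FPKM in knockout, 82.3 in clone 1 and 2.09 in clone 2, with 78.5% and 78.9% of its read starts in use in knockout and 56.4% and 1.63% in the clones. Slpi, a secreted inhibitor of leukocyte proteases, was at 88.8 and 88.3 in knockout and 52.7 and 1.56 in the clones. Serpina3g was at 31.3 and 30.4 in knockout and 18.3 and 0.137 in the clones, and Lcn2, the siderophore-binding lipocalin, at 162 and 160 against 127 and 15.9. The members that did not lie below knockout in both clones were Ptgs2, the inducible cyclooxygenase, at 61.5 and 61.2 in knockout and 23.5 and 86.5 in the clones, and the collagenase gene Mmp13, at 4.97 and 5.08 against 1.13 and 7.90. Both were low in clone 1 and above knockout in clone 2.

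Macrophages produce many of these proteins, and most of their markers were low, with 7 of 10 under 1 FPKM in each knockout library, 8 in clone 1 and 7 in clone 2. The summed FPKM of the 10 macrophage and blood markers was 13.7 and 15.1 in knockout and 7.77 and 8.80 in the clones. Ptprc, Emr1 and Tyrobp, which encode CD45, F4/80 and a myeloid signalling adaptor, were at 0 in all 4 libraries, Itgam was at 0 in all but clone 2, and Cd14, the largest part of the sum and a gene that fibroblasts can express, went from 10.3 and 11.5 in knockout to 6.45 and 4.19. Cd68 and Csf1r were highest in clone 2, Cd68 at 2.10 and 2.02 in knockout and 1.05 and 3.45 in the clones, and Csf1r at 0.184 and 0.239 against 0.134 and 1.09. Fewer cells of a type and less RNA per cell cannot be told apart in such bulk libraries.

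Chemokines and cytokines, the secreted signals that attract and instruct leukocytes, lay below knockout mainly in clone 2. Of 24 tested genes, 14 were lower in both clones, 5 were at least 2-fold lower in both, and 16 were at least 2-fold lower in clone 2, beside 25.7%, 1.43% and 4.94% of all tested genes. The median difference was -0.22 in clone 1 and -1.25 in clone 2, and -0.76 and -1.42 without the 8 members over 20% of read starts. Ccl20, a chemokine for cells bearing CCR6 (chromosome 1, mm9 positions 83113341 to 83115742), was at 67.9 and 67.5 FPKM in knockout and 13.7 and 0.414 in the clones. The control level of Ccl20 was 13.1, close to that of clone 1. Il6, the interleukin that drives acute-phase gene expression, was at 29.6 and 30.2 in knockout and 6.75 and 0.419 in the clones, although control (28.2) lay near knockout and the full-length clones were higher (49.0 and 44.7). Il1a was at 2.46 and 2.58 in knockout, 0.180 in clone 1 and 0 in clone 2, and the chemokine gene Ccl9 at 2.87 and 2.62 against 0.70 and 0.154. Csf3, at 1.40 and 1.81 against 0.242 and 0.213, was the fifth.

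Several abundant chemokines did not separate clone 1 from knockout. Ccl2, which attracts monocytes, was at 148 and 146 FPKM in knockout, 139 in clone 1 and 55.2 in clone 2. Cxcl1, which attracts neutrophils, was at 153 and 154 in knockout and 155 and 73.4 in the clones, and Ccl5 at 26.4 and 26.0 against 27.2 and 3.58. Clone 2 alone was low in these 3 genes. In knockout and clone 1, Ccl2 and Cxcl1 lay at levels where read starts may compress a difference, and this was not tested. Il11 went the other way in clone 2, at 10.5 FPKM against 2.83 and 2.79 in knockout and 1.85 in clone 1.

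Of 28 tested NF-kB subunits, inhibitors and adaptors, 17 were lower in both clones (25.7% of all tested genes were) and only Irak3 was at least 2-fold lower in both, a share near the 1.43% of all tested genes. The medians were -0.07 and -0.56, the latter -0.25 without the 12 members over 20% of read starts. Irak3, an inhibitor of Toll-like receptor signalling, was at 12.1 and 12.9 FPKM in knockout and 4.16 and 1.29 in the clones. Rela and Nfkb1, the subunits of the main heterodimer, stood at 49.7 and 50 and at 49.2 and 49.2 in knockout. In the clones Rela was at 47.5 and 47.3 and Nfkb1 at 46.4 and 31.3. Nfkbia, the inhibitor that NF-kB induces, was at 86.4 and 86.6 in knockout and 82.6 and 39.7 in the clones, and Nfkbiz at 55.6 and 56.2 against 35.8 and 8.01. Tlr2 and Vcam1 were above knockout in clone 1 and below it in clone 2, Tlr2 at 52.9 and 53.6 against 55.8 and 14.7 and Vcam1 at 30.8 and 30.1 against 44.2 and 4.45.

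Interferon-stimulated genes, the antiviral programme that interferons switch on, were lower in both clones in 25 of 32 tested members (25.7% of all tested genes were). Only 2 were at least 2-fold lower in both, and clone 2 held 19 that were at least 2-fold lower, beside 1.43% and 4.94% of all tested genes. The medians were -0.28 in clone 1 and -1.15 in clone 2. Their level in knockout was above control in 29 of 32, and 5 of 32 were below control in clone 1 and 26 of 32 in clone 2, beside 45.1%, 52.3% and 48.4% of all tested genes. Ifi27l2a, a small interferon-induced mitochondrial protein, was at 12.0 and 13.8 FPKM in knockout and 1.08 and 0.476 in the clones, so both clones were low. Oas1a, which senses double-stranded RNA, was at 7.34 and 7.58 in knockout and 2.66 and 1.57 in the clones. Irf7, a transcription factor of the interferon loop, was at 40.3 and 39.4 in knockout, 25.9 in clone 1 and 7.73 in clone 2, and the ubiquitin-like Isg15 at 36.1 and 34.9 against 22.5 and 8.93. Ifit1 was at 33.4 and 33.5 against 31.0 and 7.16, with only clone 2 low, while Ifit2 was at 19.0 and 19.5 against 22.2 and 23.4. MHC class I genes, of which 15 were tested, had medians of 0.04 and -0.46 (-0.04 and -0.52 without the 6 over 20% of read starts). None was at least 2-fold lower in both clones, near the 1.43% of all tested genes. H2-K1 was at 26.1 and 25.9 in knockout and 23.9 and 12.9 in the clones.

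**Figure D2:**
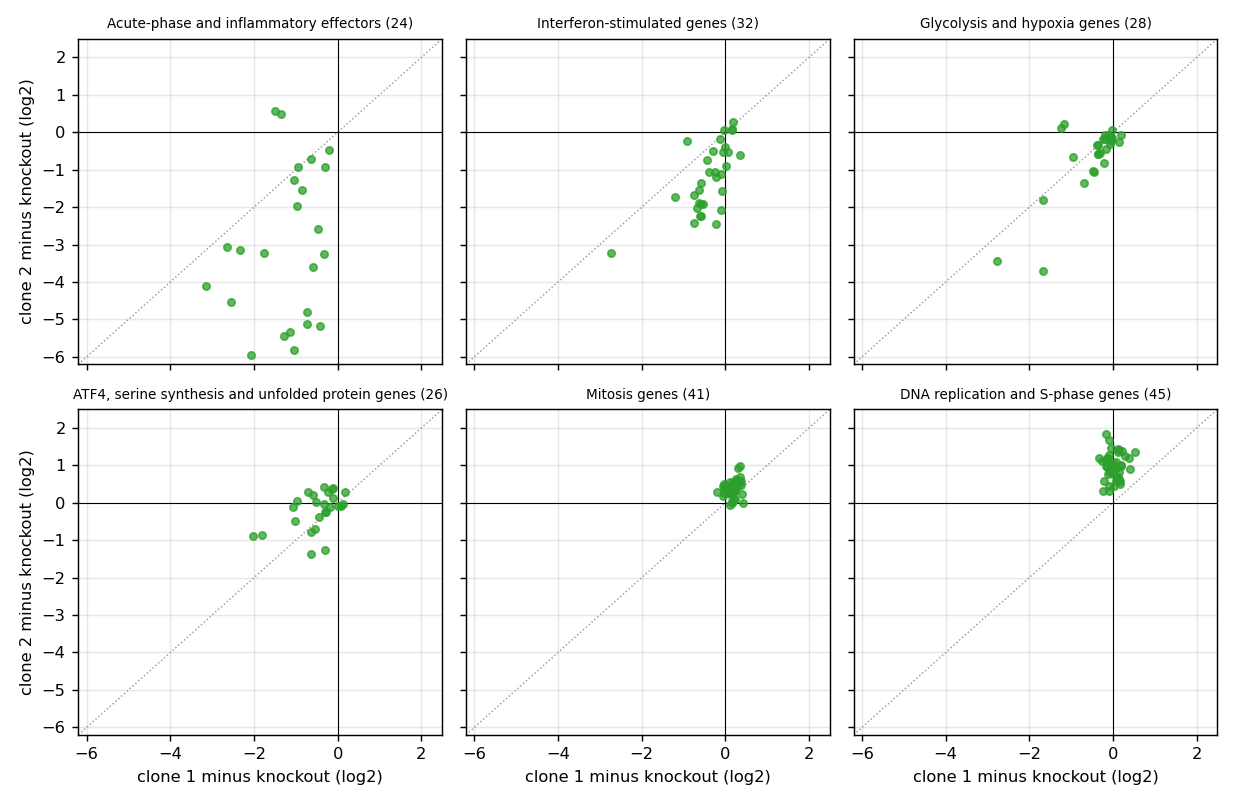
Log2(FPKM + 1) difference from knockout of each tested member of 6 gene lists, clone 1 on the horizontal and clone 2 on the vertical axis; the dotted line marks equal differences and the number of members is in each title. Acute-phase and interferon genes lie under the line because clone 2 was lower (medians -3.19 and -1.15), S-phase genes lie above it (median 0.97 in clone 2 and -0.00 in clone 1), and both axes share the knockout sample.

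Glycolysis and hypoxia genes were lower by similar amounts in the 2 clones. Of 28 tested, 23 were lower in both and 3 at least 2-fold in both, beside 25.7% and 1.43% of all tested genes, and the medians were -0.28 and -0.33. The list's knockout level was above control in 24 of 28 (45.1% of all tested genes). Slc16a3, the lactate exporter MCT4 (chromosome 11, mm9 positions 120809798 to 120820314), was at 19.4 and 19.6 FPKM in knockout and 2.00 and 0.875 in the clones. Control stood at 2.20 and the full-length clones at 1.65 and 0.831, so the knockout sample was apart from all other libraries. The log2 difference of the TAFH-deleted clones from knockout was -3.11 ± 0.417 (SE), with a limma adjusted p of 0.437. Car9, the hypoxia-induced carbonic anhydrase whose promoter is printed above, was at 20.8 and 21.3 FPKM in knockout and 5.87 and 0.702 in the clones. Egln3, an oxygen-sensing prolyl hydroxylase, was at 2.43 and 2.62 in knockout, 0.113 in clone 1 and 0 in clone 2. Pdk1, which keeps pyruvate out of mitochondria, was at 38.1 and 37.9 against 23.2 and 14.3, and Vegfa, the endothelial growth factor, at 58.6 and 59.7 against 29.8 and 37.1. The enzyme genes Ldha and Aldoa differed little, Ldha at 78.6 and 79.6 in knockout and 75.1 and 70.0 in the clones and Aldoa at 107 and 108 against 106 and 96.3. At the level of Aldoa read starts may compress a difference. Hk2 and Pfkp were low in clone 1 only, Hk2 at 4.45 FPKM in clone 1 and 13.2 in clone 2 against 11.8 and 12.2 in knockout.

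Enzymes that cut the extracellular matrix included genes with nearly equal values in the 2 clones. Of 22 tested matrix proteases and inhibitors, 5 were at least 2-fold lower in both clones (1.43% of all tested genes were), while the medians were -0.15 and -0.30. Without the 15 members over 20% of read starts the medians were -1.50 and -1.49. Mmp2, the gelatinase A of fibroblasts (chromosome 8, mm9 positions 95351227 to 95377319), was at 49.3 and 48.4 FPKM in knockout and 6.35 and 6.95 in the clones (6.65 ± 0.423 SD, n = 2). This was the smallest adjusted p of the comparison, with a log2 difference of -2.71 ± 0.116 (SE) and a limma adjusted p of 0.173, and the full-length clones were at 70.5 ± 0.801 (SD, n = 2). Serpine2, protease nexin-1, was at 5.0 and 4.67 in knockout and 0.0757 and 0.0998 in the clones. Ctsk, the collagen-degrading cathepsin K, was at 6.08 and 6.24 against 0.494 and 0.434, and Adamts9 at 3.66 and 3.69 against 0.276 and 0.0211. Adamts12 was at 11.4 in each knockout library and 4.8 and 3.43 in the clones. Both clones lay under the knockout libraries in each of these 5. Against the full-length clones the limma adjusted p was 0.954 for Serpine2 and 0.112 for Adamts9, and under 0.05 for Mmp2, Ctsk and Adamts12. The inhibitor genes Timp1 (121 and 120 in knockout, 98.5 and 120 in the clones) and Timp2 (120 in each knockout library, 121 and 104 in the clones) stood near knockout, at levels where read starts may compress differences.

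Few structural matrix genes were at least 2-fold from knockout in both clones. None of 20 collagen genes was at least 2-fold lower or higher in both, near the 1.43% and 0.158% of all tested genes. By any amount, 8 of the 20 collagens were lower in both (25.7% of all tested genes were), and the medians were -0.03 and -0.23. Their direction was not stable: without the 13 collagens over 20% of read starts the medians were -0.07 and 0.82, and after quantile normalization 0.01 and -0.10. Among basement membrane genes 1 of 12 was at least 2-fold lower in both clones. This was Lama4, a laminin chain, at 5.79 and 5.59 FPKM in knockout and 0.180 and 0.179 in the clones. Of 25 elastic fibre and matricellular genes 2 were: Ltbp2, at 93.6 and 93.5 against 32.2 and 21.5, and Efemp1, at 5.97 in each knockout library against 2.14 and 2.08. Of 13 matrix-binding integrins 2 were, Itga1 at 5.98 and 6.51 against 1.31 and 0.458 and Itga7 at 17.3 and 17.0 against 2.65 and 7.57. By any amount, 8 of 12 basement membrane genes, 14 of 25 elastic fibre and matricellular genes and 5 of 13 integrins were lower in both clones. Of 13 smooth muscle contractile genes, 8 were lower in both clones and all 13 were lower in clone 2 (46.1% of all tested genes were). Among them Cnn1, calponin, was at 56.7 and 55.3 against 15.8 and 3.11 and Actg2 at 11.2 and 10.6 against 4.8 and 2.27. Acta2 was at 123 in each knockout library and at 123 and 88.4 in the clones, where read starts may compress differences.

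Growth factor and Wnt genes held a few that were low in both clones. Of 34 growth factors and receptors, 21 were lower in both (25.7% of all tested genes were) and 1 at least 2-fold, near the 1.43% of all tested genes. The medians were -0.48 and -0.32, and -0.55 and -0.12 without the 16 members over 20% of read starts. That gene was Gas6, a ligand of TAM receptors, at 3.0 and 3.59 FPKM in knockout and 0.235 and 0.0258 in the clones. The full-length clones were below knockout too, at 0.760 and 0.545, with control at 46.5. Pdgfra was at 17.4 and 17.3 in knockout and 11.5 and 8.81 in the clones, and Ereg, an EGF receptor ligand, at 75.2 and 74.8 against 40.6 and 40.1. Of 25 Wnt pathway genes 2 were at least 2-fold lower in both clones. Rspo3, an R-spondin that strengthens Wnt signals (chromosome 10), was at 19.2 and 19.7 in knockout and 2.33 and 0.534 in the clones. Full-length clones stood at 54.8 and 42.5 and control at 37.1. Wnt11 was at 4.49 and 4.47 against 0.461 and 1.67. Among 22 AP-1 and immediate early genes, Fos (22.8 in each knockout library, 10.6 and 4.04 in the clones) and Atf3 (32.7 and 33.5 against 14.2 and 6.47) were at least 2-fold lower in both, while Jun was at 31.2 and 33.1 against 30.2 and 39.9.

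Other named genes of the 15 largest differences belong to none of the groups above. Plxdc2, a plexin-domain membrane protein (chromosome 2), was at 29.8 and 30.4 FPKM in knockout and 3.57 and 1.27 in the clones. Slc1a6, a glutamate transporter, was at 46.5 and 46.6 in knockout and 8.55 and 2.06 in the clones. Dram1, a lysosomal protein of autophagy, was at 25.1 and 25.5 against 5.98 and 0.497. These 3 were above knockout in each full-length clone, Plxdc2 at 46.8 and 40.5, Slc1a6 at 66.4 and 54.9 and Dram1 at 49.8 and 49.5. Tnfaip6, a hyaluronan-binding protein induced by TNF, was at 18.9 and 19.2 in knockout and 3.11 and 0.220 in the clones, and Ch25h, which makes 25-hydroxycholesterol, at 21.1 and 21.3 against 4.52 and 0.161. For these last genes control was lower than knockout, Tnfaip6 at 8.64 and Ch25h at 6.45.

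Genes above knockout in both clones were few, and 10 of the 19 are named. The others were predicted genes or were under 5 FPKM both in knockout and in the mean of the clones. Prkg2, the type II cGMP-dependent protein kinase (chromosome 5, mm9 positions 99358792 to 99466098), was at 1.40 and 1.61 FPKM in knockout and 5.29 and 17.6 in the clones. Sema3e, a secreted guidance cue that signals through plexin D1 (chromosome 5), was at 5.41 and 5.40 in knockout, 11.9 in clone 1 and 39.4 in clone 2. Clone 2 was the higher of the pair in both genes, and in 15 of the 19.

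Gchfr, the regulatory protein of GTP cyclohydrolase I (chromosome 2, mm9 positions 118993524 to 118998125), was at 15.7 FPKM in each knockout library and at 44.9 and 45.5 in the clones (45.2 ± 0.458 SD, n = 2). Its log2 difference was 1.46 ± 0.166 (SE), with a limma adjusted p of 0.417. Control was at 43.0 and the full-length clones at 18.7 and 23.4, so the TAFH-deleted clones lay at the control level and the full-length clones nearer knockout. Lphn3, the adhesion receptor latrophilin 3, was at 8.15 and 8.56 in knockout and 21.6 and 24.9 in the clones, with control at 7.53 and the full-length clones at 8.93 and 8.76. Only the TAFH-deleted clones were high in this gene.

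Kcnab1, a potassium channel subunit, was at 3.08 and 2.33 FPKM in knockout and 9.30 and 11.5 in the clones. Mtap2, a microtubule-associated protein, was at 7.24 and 7.58 in knockout and 16.3 and 21.4 in the clones, and Map2k6, a kinase upstream of p38, at 1.49 and 1.42 against 8.44 and 4.70. The remaining named genes, Rgs20, Lrp11 and Rab27b, were between 0.878 and 2.24 FPKM in knockout and between 3.55 and 8.69 in the clones.

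Cell division genes separated the clones from each other. All 45 tested DNA replication and S-phase genes were above knockout in clone 2 (53.8% of all tested genes were), 20 of them at least 2-fold (3.52% of all tested genes), with a median difference of 0.97. In clone 1, 21 were above and 24 below knockout (55.0% and 44.9% of all tested genes) and the median was -0.00. Without the 22 members over 20% of read starts the medians were 1.19 and 0.08. All 45 were lower in knockout than in control (54.9% of all tested genes were), 44 of 45 were still below control in clone 1 and 7 of 45 in clone 2. Cdc6, which loads the replicative helicase, was at 3.33 and 3.14 FPKM in knockout, 2.80 in clone 1 and 14.2 in clone 2. Ccne2, a cyclin of the G1 to S transition, was at 8.49 and 8.77 in knockout and 8.06 and 30.1 in the clones, and Mcm6, a helicase subunit, at 24.7 and 25.2 against 29.1 and 67.3. In all 3 genes clone 1 stood near knockout.

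Mitosis genes differed less. Of 41 tested, 34 were above knockout in both clones and 0 below it in both, beside 34.6% and 25.7% of all genes, and none was at least 2-fold in either clone. Over all tested genes 2.2% were at least 2-fold lower and 0.416% higher in clone 1, and 4.94% and 3.52% in clone 2. The medians were 0.17 and 0.37. Aurkb, the kinase of the chromosomal passenger complex, was at 17.8 and 18.4 FPKM in knockout and 22.4 and 35.7 in the clones, and Mki67, the proliferation marker Ki-67, at 16.5 and 16.3 against 19.9 and 26.3. Ccnb1 was at 10.0 and 9.78 against 11.0 and 13.1. Of 24 tested CDK inhibitors and p53 targets, 10 were lower in both clones (25.7% of all tested genes were). None was at least 2-fold lower or higher in both, near the 1.43% and 0.158% of all tested genes. Fas, the death receptor, was at 71.2 and 69.8 FPKM in knockout, 63.0 in clone 1 and 7.66 in clone 2, whereas Cdkn1a was at 2.61 and 2.69 in knockout, 0.164 in clone 1 and 2.06 in clone 2.

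**Figure D3:**
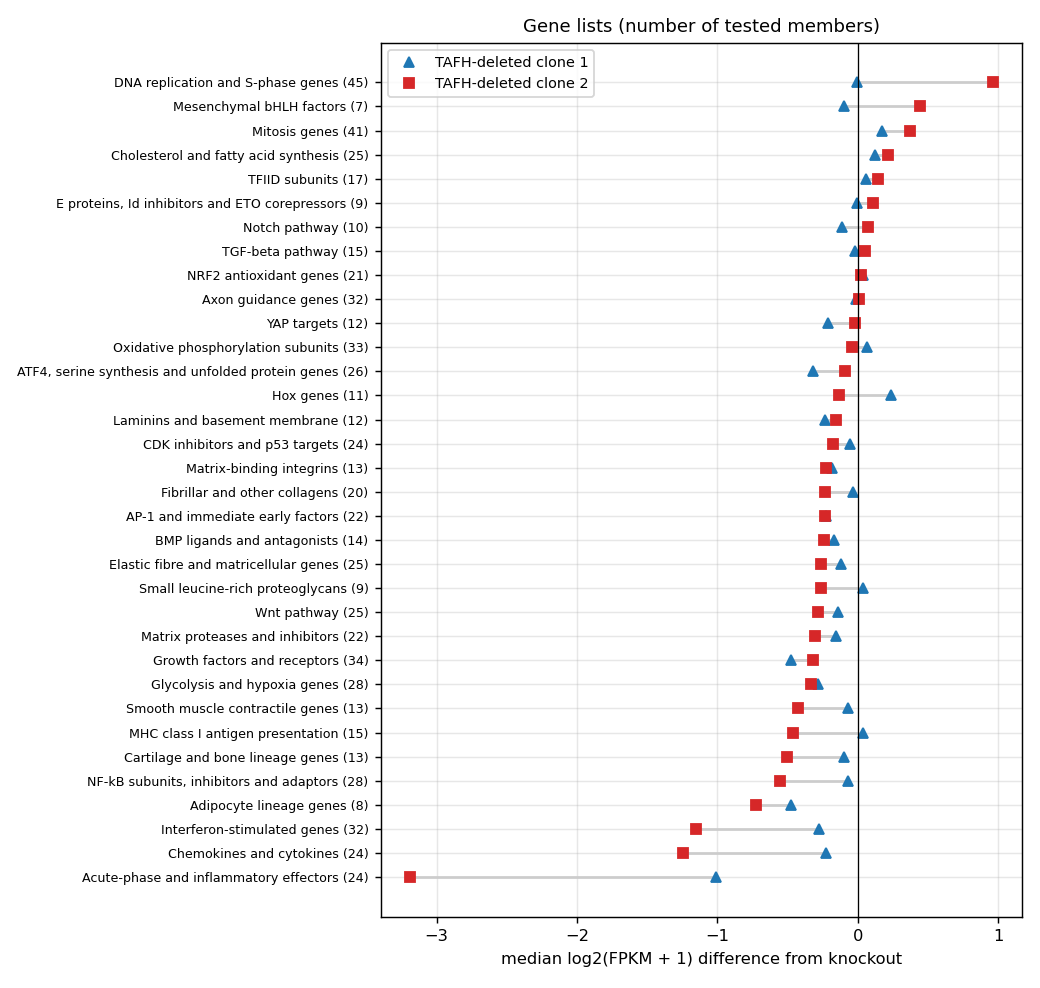
Median log2(FPKM + 1) difference from knockout over the tested members of each gene list with at least 7 members, in TAFH-deleted clone 1 (blue triangles) and clone 2 (red squares); the number of members is in parentheses. The acute-phase list lies lowest in both clones (-1.01 and -3.19), and the S-phase list highest in clone 2 (0.97), where clone 1 is at -0.00.

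ATF4, serine synthesis and unfolded protein genes were low in clone 1 more than in clone 2. Of 26 tested, 22 were below knockout in clone 1 and 16 in clone 2 (44.9% and 46.1% of all tested genes), with medians of -0.32 and -0.09 and 4 and 2 at least 2-fold lower (2.2% and 4.94% of all tested genes). The medians were -0.54 and -0.31 without the 18 members over 20% of read starts, and after quantile normalization that of clone 2 was 0.03. Trib3, a pseudokinase induced by stress, was at 24.5 and 23.9 FPKM in knockout and 6.19 and 12.9 in the clones. Asns, asparagine synthetase, was at 52.4 and 51.6 in knockout, 26.1 in clone 1 and 54.2 in clone 2, and Atf4 itself at 86.7 and 86.4 against 71.7 and 73.2. Hspa5, the chaperone BiP, was at 119 in each knockout library and at 120 and 112 in the clones, where read starts may compress differences.

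Genes at least 2-fold from knockout in only 1 clone included matrix and signalling genes in clone 1. Coch, a secreted matrix protein, was at 23.6 and 23.3 FPKM in knockout, 2.71 in clone 1 and 19.1 in clone 2. Slco2a1, a prostaglandin transporter, was at 10.5 and 10.7 in knockout and 1.35 and 9.07 in the clones. Fgf2, a fibroblast growth factor, was at 5.23 and 5.64 against 0.571 and 4.64, and Pdk4 at 16.3 and 16.6 against 3.11 and 11.3. In these 4 genes clone 2 stood within 2-fold of knockout. On the higher side Postn, periostin, was at 32.0 and 30.4 in knockout, 73.0 in clone 1 and 25.9 in clone 2. Ddit4l, an inhibitor of mTOR signalling, was at 3.49 and 3.17 against 16.5 and 1.91.

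In clone 2 the higher genes were larger in number and size. Ngef, a guanine nucleotide exchange factor, was at 0.292 and 0.265 FPKM in knockout, 1.36 in clone 1 and 18.0 in clone 2. Lipg, endothelial lipase, was at 3.05 and 3.30 in knockout and 4.13 and 47.6 in the clones, and Selp, P-selectin, at 2.94 and 2.63 against 1.47 and 26.8. Il7, a lymphocyte growth factor, was at 1.61 and 1.31 against 1.70 and 16.0. Control stood at 10.1 for Ngef, 10.2 for Lipg, 8.25 for Selp and 14.0 for Il7, so clone 2 and control were both above knockout and clone 1 there. Among the genes low in clone 2 only, Casp4, an inflammatory caspase, was at 17.9 and 19.0 in knockout, 12.4 in clone 1 and 0 in clone 2. Ifitm1 and Ifitm6, interferon-induced membrane proteins, were at 21.6 and 21.7 and at 22.6 and 22.8 in knockout. Their clone values were 18.3 and 0.261 for Ifitm1 and 22.5 and 0.548 for Ifitm6. Ndufs5 was listed at 0.00231 in clone 2 but also at 0.0163 in full-length clone 1, against 17.3 and 22.4 in knockout and 18.6 in full-length clone 2, so single libraries and not whole groups stood apart in this gene. BC002163, at the same mm9 positions (chromosome 4, 123389953 to 123395429), was high where Ndufs5 was near 0, at 22.7 FPKM in clone 2 and 20.9 in full-length clone 1. It was at 0.00128 in clone 1 and 0.0549 in full-length clone 2, so the values of these symbols mirrored each other, and neither gives the level of the locus.

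**Figure D4:**
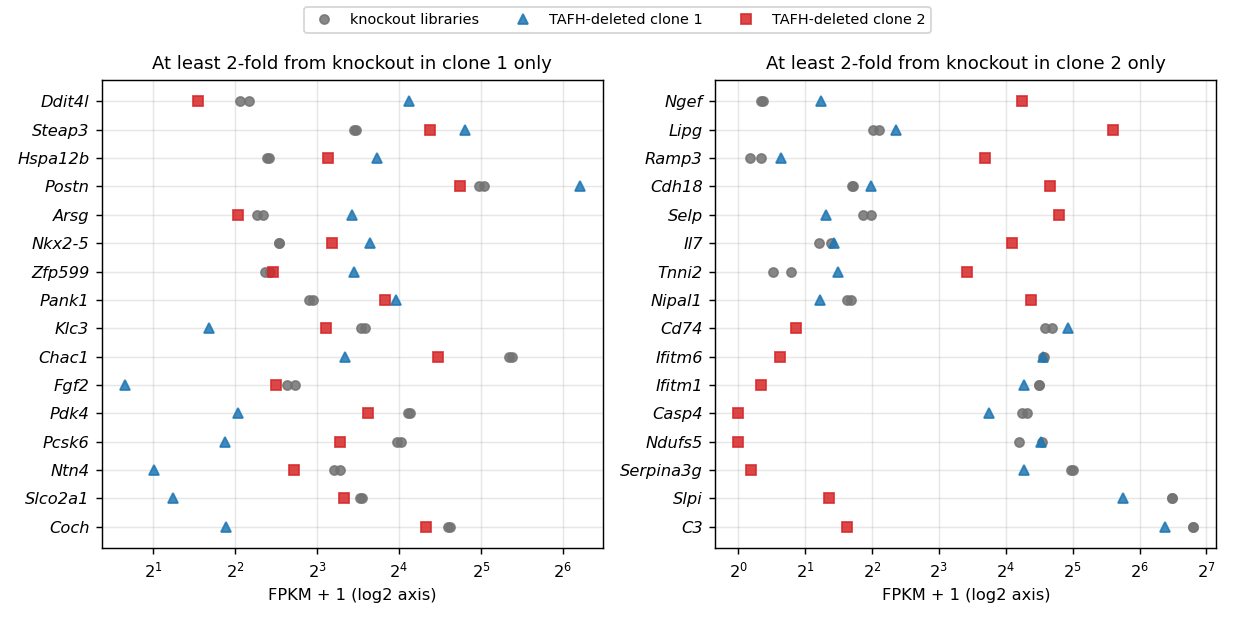
FPKM + 1 (log2 axis) of genes at least 2-fold from knockout in clone 1 only (left) and in clone 2 only (right), 8 higher and 8 lower in each. Grey circles are the 2 knockout libraries, blue triangles clone 1 and red squares clone 2; C3, for example, is at 82.3 FPKM in clone 1 and 2.09 in clone 2.

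In 7 genes the clones were at least 2-fold from knockout in opposite directions. Has2, a hyaluronan synthase, was at 5.40 and 5.48 FPKM in knockout and 1.75 and 13.0 in the clones. Gstm7 and Slc16a4 went the other way, Gstm7 at 7.05 and 7.79 against 22.0 and 1.51 and Slc16a4 at 6.58 and 6.13 against 19.6 and 1.68. Alox5ap, Gm13483 and BC002163 were also among the 7. BC002163, which mirrors Ndufs5, was at 5.77 and 0.00410 in the knockout libraries, and its direction is not that of the locus.

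Of 9 tested genes for E proteins, Id inhibitors and ETO corepressors, none was at least 2-fold higher or lower than knockout in both clones. Over all tested genes 0.158% were higher and 1.43% lower, so none among so few genes is near that share. The medians were -0.006 and 0.11, and -0.006 and 0.19 without the 6 members over 20% of read starts. Id1 and Id3 are among those 6, and at such levels read starts may compress differences, which was not tested. Tcf3, which encodes E2A, was at 52.9 and 52.4 FPKM in knockout and 61.3 and 57.2 in the clones. Tcf4 was at 34.5 and 34.7 in knockout and 40.3 and 37.5 in the clones, and Tcf12, which encodes HEB, at 50.8 and 52.3 against 59.5 and 50.4. Id1 was at 105 and 107 against 96.7 and 108, Id2 at 50.8 and 49.3 against 38.9 and 58.2, and Id3 at 133 in each knockout library against 132 and 115. Id4 stood apart in clone 2, at 6.47 against 0.974 and 0.835 in knockout and 0.385 in clone 1. Of 17 TFIID genes none was at least 2-fold from knockout in both clones, which is also near the share of all tested genes. The medians were 0.06 and 0.15 (0.02 and 0.19 without the 7 over 20% of read starts). Taf4b, the TAF4 paralog, was at 2.10 and 1.95 in knockout, 1.64 in clone 1 and 6.13 in clone 2.

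The TAFH-deleted clones can also be set against the clones with full-length TAF4, 2 against 2, which does not use the knockout sample. Limma called 315 genes there (2.62%), 203 of them lower in the TAFH-deleted clones (1.69%). It shares both TAFH-deleted libraries with the comparison above, so genes chosen for their values in these clones are not independent evidence here, and their values are given side by side only. Lphn3 (adjusted p = 0.0488 by limma) and Gchfr (adjusted p = 0.0497), both above knockout, were called higher. The named genes Rspo3 (adjusted p = 0.0423) and Plxdc2 (adjusted p = 0.0438) were called lower by limma, whereas Saa3 (adjusted p = 0.193) and Ccl20 (adjusted p = 0.257) were not. The called genes named here lie near the limit of 0.05. Fewer genes were called under other settings, with 180 after quantile normalization, 199 after median-ratio scaling and 71 with the filter on the 4 libraries compared. The count of 315 rests on both TAFH-deleted clones, being 6722 without clone 1 and 4806 without clone 2, where a lone clone is assumed to vary like the full-length clones.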

How the data were processed

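Per the labels, 8 libraries were made with Illumina mRNA kits. CASAVA 1.8, TopHat, Cufflinks and Cuffdiff were used on mm9 per the submitters' processing notes; their other versions, and normalization options, are not given in the sources used here. The authors deposited FPKM for 30028 transcripts in each library with transcript lengths, and the authors' own p-values and q-values, cited as such. FPKM of the transcripts of a gene were summed by symbol and chromosome, and log2(FPKM + 1) was compared.

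A level of 1 FPKM in 2 or more of the 8 libraries was reached by 12209 genes; 184 with no transcript of 300 bases were left out, leaving 12025. Low FPKM values of 12347 genes were whole multiples of 1 fragment once 204.1 bases were taken from the length (100% in each library, within 0.05 fragments), which gave the fragments used for depth, pair checks and read starts. Intervals and limits from them cover counting error only. Limma 3.58.1 (R 4.3.3, trend on) fitted 6 samples without covariates, two-sided, with Benjamini-Hochberg adjustment, after averaging each of the control and knockout pairs. It was tested on simulated data. Summaries used Python 3.11.15 with pandas 2.3.3 and numpy 2.4.6.

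Named genes were the up to 15 largest differences each way among genes at least 2-fold from knockout in both clones with 5 FPKM in knockout or in the mean of the clones, the 8 largest each way in 1 clone only, up to 4 members of each list, and E-protein, Id and fibroblast genes, leaving out predicted and small RNA genes. Further list members, the genes of opposite direction and the motifs were chosen after their values were seen. The comparison, lists and rules were chosen with earlier results of these data known. Alternatives covered pseudocount, scaling, filters, fold threshold, counting of libraries and leaving out each library.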

Additional observations from a re-analysis of the deposited data

How the results depend on the processing

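Among the settings tried, those that changed the count of genes called against knockout were the filter, the counting of libraries and the clones kept. Limma called 4 genes higher and 375 lower with no filter on low values, 1 and 12 with short transcripts kept, and 497 and 577 with each library counted. With each library counted and the replicate number as a block it called 150 and 311, but libraries with the same number did not deviate together (correlation -0.013 with knockout, -0.078 with full-length rescue and -0.007 with control), so they share only a number. Leaving out 1 library at a time gave 0 to 2136 higher and 0 to 1877 lower. The 315 genes called against full-length rescue became 142 at a pseudocount of 0.1, 180 after quantile normalization, 199 after median-ratio scaling, 80 with at least 5 FPKM in 2 libraries, 71 with the filter on the 4 libraries compared, 106 with short transcripts kept, 4566 with each library counted, 3921 with the block, and 314 to 6722 without 1 library.

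Fold counts moved with the pseudocount, since many of the genes are low. At 0.1 there were 71 genes higher and 351 lower in both clones, 162 and 562 in clone 1, and 969 lower in clone 2. At 5 there were 1 and 56 in both, 8 and 79 in clone 1, and 138 and 237 in clone 2. At 1.5-fold the counts were 113 and 419 in both, 308 and 677 in clone 1, and 1289 and 1308 in clone 2, and at 4-fold 0 and 31, 2 and 46, and 41 and 152. Genes higher in both numbered 12 with at least 5 FPKM in 2 libraries and 29 with short transcripts kept, and clone 1 then held 81 higher. Without 1 library the counts were 17 to 423 higher and 174 to 594 lower in both, 49 to 54 and 264 to 270 in clone 1, and 423 to 430 and 593 to 598 in clone 2, where leaving out a clone leaves the count of the other. Without genes over 20% of read starts 151 were lower in both. Of the genes at least 2-fold from knockout, the higher ones were 15.9% in clone 1 and 41.6% in clone 2, and 21.4% and 42.3% after quantile normalization. Of the list medians 66 of 350 recomputed values moved by more than the allowed spread. Of the recomputed values of named genes, 17 were counted as moved, 324 as stronger and 2796 as the same. No named gene changed direction past the threshold.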
